A study of Danio rerio with 49 samples.

Results

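The mature replication timing programme of the zebrafish embryo was read from 8 sequencing libraries, 4 of S-phase nuclei and 4 of G1 nuclei, taken from wild-type (WT) embryos at 24 hours post fertilisation (hpf). They were chosen by their labels, as all S and all G1 libraries of that stage and genotype, and are 8 of the 49 libraries in the series. The series follows replication timing through early development in WT embryos and in omf201/omf201 embryos, which carry a mutant allele of *rif1*, a gene for a regulator of replication timing. For comparison, S and G1 libraries of WT embryos at the Bud stage (10 hpf) and of omf201 embryos at 24 hpf were also read. All embryos were of the Tab5 strain, and the 24 hpf embryos were at the Prim-5 stage of the pharyngula period. Nuclei were prepared from whole embryos without yolk, stained with propidium iodide and sorted by DNA content into G1 and S fractions, and their genomic DNA was sequenced as paired ends. The S and G1 groups of 24 hpf WT thus share strain, genotype, age and preparation and differ in the sorted fraction. The protocol's sentence on the sorters names a later age for this stage, and the 24 hpf of the sample labels is used here. The labels do not state how many embryos gave each sample, or which of the listed sequencers and adapters each library used. The p-values below therefore treat each sample as a replicate, and how far they hold for other embryos is not known. A DNA count carries no tissue marker, so the labelled source, the whole embryo, could not be checked against marker genes.

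In each S phase the genome is copied from many origins that fire in a set order. A sequence copied early is present in more copies, averaged over the S-phase nuclei, than a sequence copied late, while in G1 nuclei all sequences have the same number of copies. The ratio of S to G1 counts is therefore a measure of relative timing, and the G1 sample also cancels differences in how well a sequence can be sequenced and aligned. Summits of the ratio along a chromosome mark regions of early initiation, low stretches mark regions copied late, and the slopes between them are called timing transitions. In vertebrates, early regions are usually rich in active genes and late regions poor in them. In pooled nuclei of many cell types, a region copied in mid S phase everywhere and a region copied early in some cells and late in others give the same intermediate ratio, and cannot be told apart.

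The deposited counts are whole reads in 120082 windows on 25 chromosomes of the GRCz11 build. Of these windows, 90.3% were 60 kb wide, and neighbouring centres lay 10 kb apart, so that neighbours share reads. Over the 17657 windows that do not overlap, the S libraries held 10.97 to 19.35 M counts and the G1 libraries 14.86 to 22.94 M counts (M, mega). This came to a mean of 621.3 to 1299 counts per window, and to a counting error of 2.774% to 4.012% of the count in a window of average depth. All 12 pairs of libraries within a group differed by more than sampling noise (chi-square over its degrees of freedom 2.73 to 6.73, from 1354 bins of 1 Mb), and each library was counted as 1 sample. Each count was divided by its library's mean, and the level so obtained (1 is the library's average window) was divided by the median level of the 4 G1 libraries of the same stage. This S/G1 ratio was used unsmoothed and after smoothing along the chromosome with the cubic spline of the deposited profiles, which keeps at least 50% of a wave of 640 kb or longer and at least 90% of a wave of 1100 kb or longer. Ratios are given on the log2 scale, where 0 is the genome's average, a positive value is early and a negative value is late.

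Most of the genome differed in copy number between S and G1. In edgeR's quasi-likelihood test with Benjamini-Hochberg adjustment, 94371 of 120082 windows (78.6%) were called at an adjusted p under 0.05. Of all windows, 46003 (38.3%) were higher in S and are called early here, and 48368 (40.3%) were lower in S and are called late. The median fitted log2 difference was 0.216 in early and -0.252 in late windows, and the median size of the difference in windows not called was 0.041. Where the mean smoothed log2 ratio lay beyond 0.1 in either direction, 95.6% of windows were called, and beyond 0.2 the share was 99.7%. These windows were picked by the ratio of the same libraries, so the high shares are largely set by the choice.

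The smoothed ratios formed a continuous range, with a longer late side on the log2 scale. As plain ratios, the 5th and 95th percentiles were 0.77 and 1.23, about equally far from 1. Their 1st percentile was 0.744, the 25th 0.88, the median 0.999, the 75th 1.12 and the 99th 1.27. The 99th percentile was thus 1.71 times the 1st. In the 4 S libraries this range was 1.8, 1.73, 1.7 and 1.74, so that all libraries had nearly the same width, with replicate 1 the widest. A log2 ratio over 0.3 was found in 5.41% of windows and one under -0.3 in 12.9%, and 29.6% of windows lay between -0.1 and 0.1. The skewness of the log2 ratios was -0.174, which describes the same lean to the late side on that scale.

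**Figure D1:**
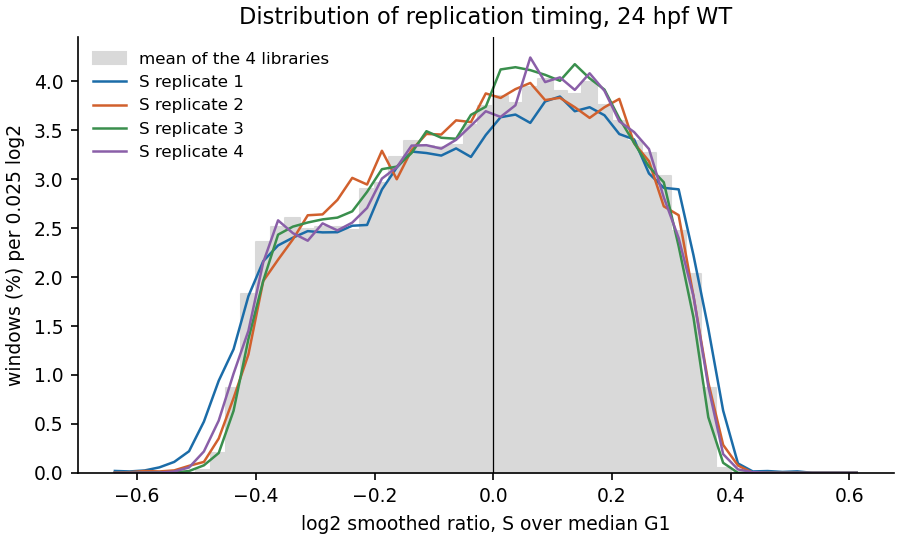
Share of the 120059 profile windows (y axis, percent per bin of 0.025) by log2 smoothed S/G1 ratio (x axis) in 24 hpf WT embryos, with 1 line for each S library and the mean profile of the 4 in grey. The 4 lines run close together, and the late side, below 0, reaches further from 0 than the early side.

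The profile was reproducible between libraries. Between pairs of S libraries, the Pearson correlation over 120059 windows was 0.919 to 0.946 without smoothing and 0.97 to 0.982 with it. These values describe profiles that share a G1 reference. With the number-matched G1 library (the G1 library that carries the same replicate number) as the reference of each S library, so that no library was used for both profiles of a pair, the correlations were 0.91 to 0.926 without smoothing and 0.98 to 0.984 with it. The SD between replicates in a window was 0.0674 for unsmoothed log2 ratios with these separate references, where counting alone gives 0.0657. Smoothing lowered it to 0.0296. The spread between the unsmoothed ratios was therefore close to the spread from counting.

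Some departures of a library from its group were shared by its S and its G1 sample. Each library was set against the median of the other libraries of its group, and this quotient was smoothed. In 4149 windows (3.46%), at least 1 library pair of the same number departed by over 0.1 log2 in both fractions. There were 5498 such cases in which S and G1 departed in the same direction and 0 in which they departed in opposite directions. Chromosome 22 held the largest share, with 22.5% of its windows, against 11.4% on chromosome 4 and 6.77% on chromosome 20. On chromosome 22 from 4670000 to 6830001, the G1 level was 1.04 in replicate 1 and 0.853, 0.88 and 0.931 in replicates 2 to 4, and the S level was 1.02 in replicate 1 and 0.84, 0.858 and 0.916 in the others. Replicate 1 was the highest in both fractions there. The SD of the log2 ratio between replicates was 0.134 with the shared reference and 0.00763 with the number-matched G1 library. On chromosome 1 from 55220000 to 56740001 replicate 1 was instead the lowest, with a level of 0.699 in S against 0.863 to 0.869 in the others, and 0.87 in G1 against 1.05 to 1.08. There the SD went from 0.148 to 0.00998, and the 4 libraries gave a late log2 ratio of -0.313 to -0.29 with their own references. Values with the number-matched reference are given below for regions in which replicate 1 stands apart.

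Timing changed gradually along the chromosomes. The correlation of the unsmoothed log2 ratio with itself, over pairs of windows at a given distance (within 10 kb), first fell under 0.5 at 320 kb, where it was 0.486 over 116736 pairs. Beyond 1000 kb and up to 3000 kb it stayed between 0.0808 and 0.111. This is a description across windows of the same libraries, with no rise above 0.111 in that range.

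Runs of neighbouring windows called in the same direction were taken as timing domains. There were 1645 early domains with a median length of 200 kb and 1716 late domains with a median length of 180 kb. Most were short, but the median early window lay in a run of 700 kb and the median late window in a run of 790 kb. Runs are broken wherever a window misses the test, so their number depends on the definition. With at least 6 windows required, there were 1078 early runs (median 360 kb) and 1088 late runs (median 380 kb). Stretches of the mean smoothed profile above or below its mean numbered 682 early (median 735 kb) and 713 late (median 750 kb).

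The longest early domain covered 3610 kb of chromosome 23, from 22350000 to 25960001. Its mean log2 smoothed ratio was 0.284, 0.261, 0.267 and 0.271 in the 4 S libraries (mean 0.271 ± 0.00988, SD, n = 4), or 1.21 times the genome's average. It lies inside a block of chromosome 23 from 20030000 to 30000001 in which the smoothed profile never fell below its mean. This block of 9970 kb was the longest on either side of the mean. It held 8 early summits and 7 low points between them, and its mean log2 ratio to the number-matched G1 library was 0.245, 0.234, 0.224 and 0.237 in the 4 libraries. The next longest early domains lay on chromosome 11 from 24590000 to 26940001, with a mean log2 ratio of 0.23 ± 0.0156 (SD, n = 4), and on chromosome 13 from 24020000 to 26330001, with 0.25 ± 0.0275. In the latter, replicate 1 was the highest at 0.289, against 0.226 to 0.248 in the others, and with the number-matched G1 library the value was 0.252 ± 0.0174.

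The longest late domain covered 3850 kb of chromosome 12, from 11760000 to 15610001. Its mean log2 ratio was -0.315, -0.29, -0.275 and -0.278 in the 4 libraries (mean -0.289 ± 0.018, SD, n = 4), or 0.818 times the average. The late domain of chromosome 17 from 3290000 to 7030001 was of nearly the same length, at 3740 kb. There the libraries gave -0.305, -0.278, -0.315 and -0.324. The SD was 0.0198 with the shared reference and 0.00604 with the number-matched G1 library. The third, on chromosome 20 from 10250000 to 13890001, had a log2 ratio of -0.434 in replicate 1 and of -0.311, -0.31 and -0.293 in the others. Replicate 1 thus stood apart from the other 3 libraries. Its SD between replicates was 0.065 with the shared reference and 0.0157 with the number-matched G1 library, and the mean then was -0.328. The longest block below the mean of the profile was on chromosome 17 from 1810000 to 8210001, at 6400 kb, with a mean log2 ratio to the number-matched G1 library of -0.282 ± 0.00732 (SD, n = 4). All of these domains were found from the same libraries, so their ratios describe them and are no separate test.

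Within these blocks the profile rose and fell in a series of summits and bottoms. The prominence of a summit was taken, on each side, from the lowest point before a higher summit or the end of the unbroken profile. The higher of these low points counted, and bottoms were read in the inverted profile. With a prominence of at least 0.1 log2, the mean profile had 805 early summits and 799 late bottoms. Neighbouring summits were a median of 1410 kb apart (quartiles 1040 and 1870 kb) and bottoms 1420 kb (1050 and 1900 kb). The spacing had a coefficient of variation of 0.428 between summits and 0.415 between bottoms. At 50% of their prominence, summits were a median of 581 kb wide (quartiles 393 and 992 kb) and bottoms 559 kb (379 and 886 kb). Summits and bottoms of the same profile nearly alternate, so their similar numbers and spacings are largely set by the method. Their widths were similar too in this smoothed profile. The spacing depends on the smoothing: with a smoothing penalty 10 times larger or smaller, summits numbered 539 or 1061.

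Summits differed widely in height. Their mean log2 ratio was 0.181 with an SD over summits of 0.143, and 722 of them lay above the genome's average while 83 lay below it. Bottoms averaged -0.211 with an SD of 0.162, and 678 lay below the average and 121 above it. Some summits were thus late relative to the genome, and some bottoms early, and differed only from their surroundings. Heights of neighbouring summits were only weakly related, with a Pearson correlation of 0.214 over 756 neighbouring pairs, and of 0.212 over 752 pairs of bottoms. These correlations are descriptions across positions that share libraries.

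The unsmoothed ratios showed how much the smoothing flattened the extremes. Averaged over the 805 summits, the unsmoothed log2 ratio to the number-matched G1 library was 0.220, 0.214, 0.209 and 0.214 in the 4 S libraries, while the smoothed mean was 0.181. At the bottoms it was -0.258, -0.246, -0.241 and -0.245, against a smoothed -0.211. At a distance of 450 kb on either side of a summit, the mean of each library lay between -0.103 and -0.0874, below the genome's average. At 500 kb on either side of a bottom it lay between 0.0615 and 0.0719, above the average. An early summit was thus followed, on average, by a late region within the length of a typical transition, and the 4 libraries traced nearly the same curve. Summits and bottoms were chosen as extremes of the mean of these libraries, so the shape around them is partly set by the choice.

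**Figure D2:**
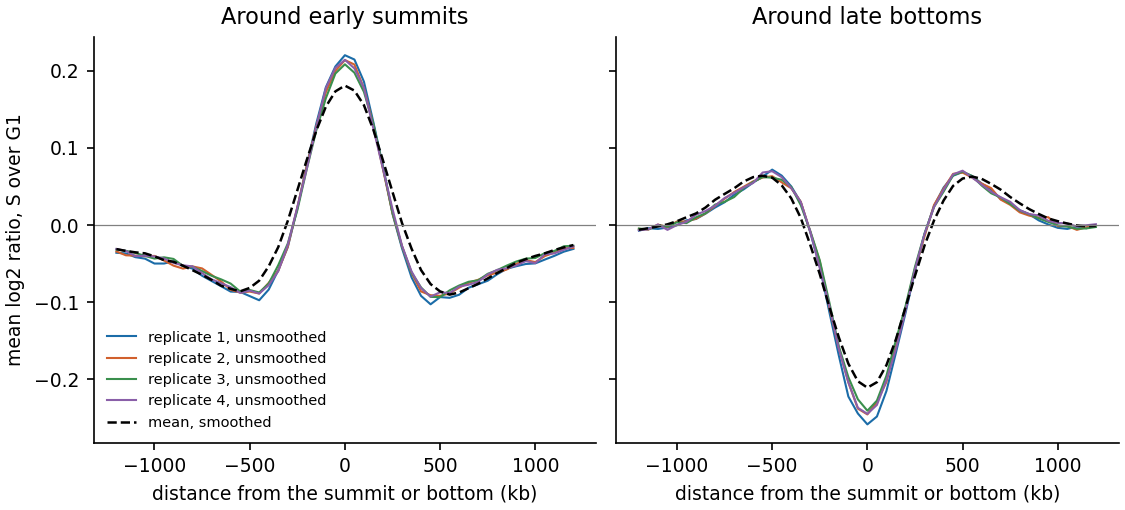
Mean log2 S/G1 ratio (y axis) by distance in kb (x axis) from the 805 early summits (left) and the 799 late bottoms (right), with 1 unsmoothed line for each S library over the number-matched G1 library and the smoothed mean dashed. The unsmoothed lines overlap and reach further from 0 at the centre than the smoothed one, and replicate 1 reaches slightly further than the others.

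Most summits were found again in single libraries. Of the 805 summits, 90.2% to 92.4% had a summit within 100 kb in a given library, and 76.4% had one in all 4 libraries. Of the 799 bottoms, 90.4% to 91.4% were found in a given library and 75.1% in all 4. Low prominence went with less agreement: for summits of prominence 0.1 to 0.2 the share found in all 4 was 50.5% of 186, against 87.2% of 266 for 0.2 to 0.4 and 81.9% of 353 above 0.4. Since the mean profile holds these libraries, summits were also taken from 3 libraries and read in the library left out. Each S library was read against its number-matched G1 library here, so that the left-out pair shared no library with the others. The mean log2 ratio of the summits in the left-out library was 0.185, 0.18, 0.174 and 0.178 for replicates 1 to 4 in turn. For bottoms the values in the left-out library were -0.219, -0.204, -0.199 and -0.205. The heights in a library that had no part in the choice were close to those of the full profile.

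The slopes between summits and bottoms numbered 1550. Their median length was 630 kb, their median size 0.379 log2 and their median mean slope 0.551 log2 per Mb. At the steepest point the median slope was 1.06 log2 per Mb, and in the upper 5% of transitions it was 1.77 or more. These slopes are those of the smoothed profile, which was flatter than the unsmoothed ratios. At 100 kb to the right of a summit, the unsmoothed log2 ratios of the 4 libraries averaged 0.173 to 0.186. At 300 kb they averaged -0.0301 to -0.0268. The smoothed mean at these distances was 0.1555 and 0.00256. The largest transition ran over 1800 kb of chromosome 17 between centres at 38280000 and 40080000. With each library's own G1 reference its size was 0.856, 0.811, 0.844 and 0.816 (mean 0.832 ± 0.0216, SD, n = 4). On chromosome 24, the next largest pair met at the same summit, at 17200000. The one on its left covered 1470 kb with a size of 0.811 ± 0.054 log2 (SD, n = 4), and the one on its right covered 690 kb with 0.813 ± 0.0347.

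That summit had the highest mean smoothed ratio of all counted summits with the shared reference. A share of 0.0008329% of the profile windows had a higher mean log2 ratio, between 0.45 and 0.475, and lay at no counted summit. In the summit's window on chromosome 24, from 17170000 to 17230001, the unsmoothed level was 1.48, 1.36, 1.3 and 1.29 in the S libraries. In the G1 libraries it was 1.2, 1, 1.02 and 1.01. The groups did not overlap, although replicate 1 was the highest of its group in both fractions. The mean log2 smoothed ratio was 0.392 ± 0.0484 (SD, n = 4) with the shared reference and 0.382 ± 0.0268 with the number-matched G1 library, and edgeR's unsmoothed log2 difference was 0.349 ± 0.0545 (SE), the lowest of the 10 highest summits. The next highest summit, on chromosome 21 from 23240000 to 23300001, was more even. Its levels were 1.48, 1.48, 1.44 and 1.46 in S and 1.11, 1.12, 1.12 and 1.11 in G1, and the log2 ratio was 0.381 ± 0.0279 (SD, n = 4). With the number-matched reference it was 0.382 ± 0.02, the same mean as on chromosome 24, so that the order of these summits rests on the reference.

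The 10 highest summits lay on 10 different chromosomes (24, 21, 13, 8, 23, 3, 12, 19, 18 and 5), with log2 smoothed ratios of 0.37 to 0.392. This is a ratio of about 1.29 to 1.31. S levels in the 10 windows ran from 1.29 to 1.53 and G1 levels from 1 to 1.2. All 10 were called by edgeR, with adjusted p-values of 6.61e-08 to 1.84e-05, where 38.3% of all windows were called early. They were chosen by the same contrast, so these counts describe them only. The summit just outside the 10, on chromosome 17 at 24320000, had a log2 ratio of 0.368, so that the limit of 10 does not mark a gap. In 4 of the 10, every library had its own summit within 100 kb, and in the other 6 at least 1 library placed it further off, by up to 480 kb. Over all summits the share found in all 4 libraries was 76.4%.

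The lowest bottom was on chromosome 17 from 40040000 to 40120001, at the foot of the largest transition. Its levels were 0.788, 0.801, 0.806 and 0.77 in S and 1.1, 1.13, 1.1 and 1.08 in G1. S lay below G1 in every library, and the log2 smoothed ratio was -0.485 ± 0.0424 (SD, n = 4), or -0.48 ± 0.0377 with the number-matched reference. On chromosome 14 from 18570000 to 18630001, the G1 levels were themselves low, at 0.851, 0.796, 0.881 and 0.83. The S levels were 0.582, 0.691, 0.605 and 0.624, so that the ratio of -0.465 ± 0.0526 comes from a further drop below an already low G1 level. On chromosome 20, from 10650000 to 10710001, replicates 1 and 2 had S levels of 0.67 and 0.671, against 0.699 and 0.779 in the others, and the log2 ratio was -0.456 ± 0.0832 (SD, n = 4). Replicate 1 also had the lowest G1 level there, 0.878 against 0.91 to 0.95. With the number-matched reference the ratio was -0.439 ± 0.0314, the nearest to 0 among the 10 lowest bottoms with that reference.

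The 10 lowest bottoms lay on 8 chromosomes (17, 12, 23, 3, 14, 1, 20 and 18, with 3 of them on chromosome 3) and had log2 ratios of -0.485 to -0.455. S levels ran from 0.582 to 0.815 and G1 levels from 0.796 to 1.13. These windows too were chosen by the same contrast, so their values and calls describe them only. All 10 were called by edgeR, with adjusted p-values of 6.61e-08 to 2.47e-06, where 40.3% of all windows were called late. None of the 10 was on the long arm of chromosome 4, but a window there at -0.478, lower than all but 1 of the bottoms, was not counted because it lay at the edge of a stretch, where no rise follows on one side. The bottom just outside, on chromosome 9 at 36450000, had a log2 ratio of -0.452 with the shared reference. In 4 of the 10 bottoms, every library had a bottom within 100 kb, where the share over all bottoms was 75.1%. On chromosome 14 the nearest bottom of 1 library lay 1330 kb away, as the most distant case.

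**Figure D3:**
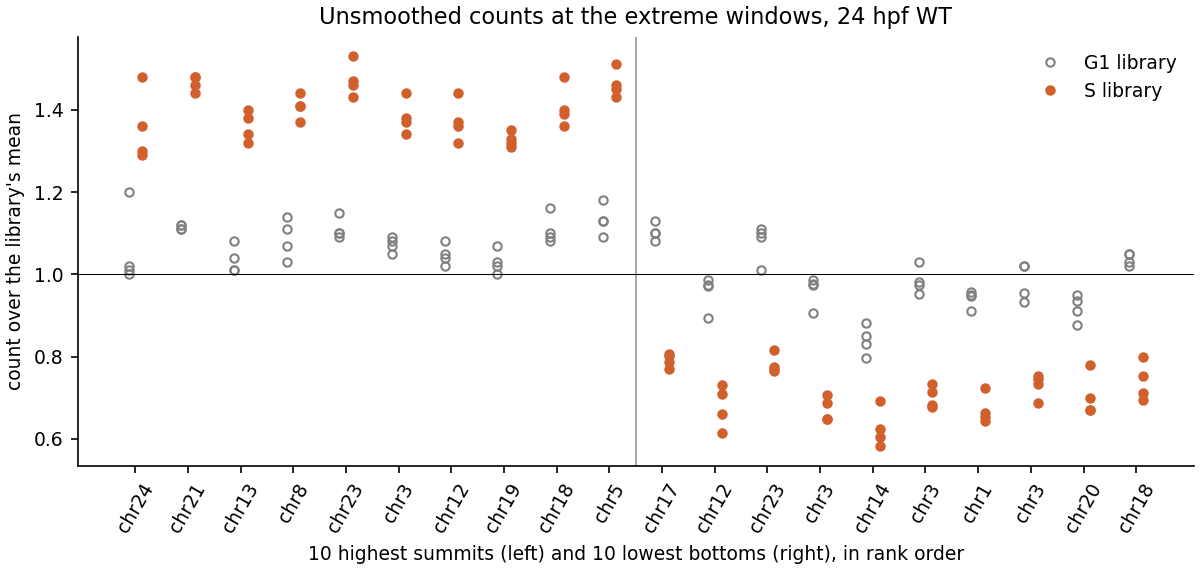
Unsmoothed count over the library's mean (y axis) in the windows of the 10 highest summits and the 10 lowest bottoms, labelled by chromosome in rank order (x axis), for the 4 S libraries (filled) and the 4 G1 libraries (open). S points lie above G1 points at the summits and below them at the bottoms. The windows were chosen as extremes of this contrast, so this separation is largely set by the choice.

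The same windows were mostly less extreme in the sets of libraries nearest in design. These were WT embryos at the Bud stage (10 hpf) and omf201 embryos at 24 hpf, each set read against its own 4 G1 libraries. The summit of chromosome 21 had a log2 ratio of 0.381 in 24 hpf WT, 0.0652 ± 0.0288 (SD, n = 4) in Bud WT and 0.292 ± 0.0288 in 24 hpf omf201. The summit of chromosome 19 from 8980000 had 0.373, 0.211 ± 0.0177 and 0.042 ± 0.019. On chromosome 13 from 5910000 and chromosome 18 from 20120000, the omf201 value was instead the higher, at 0.407 and 0.414 against 0.378 and 0.37 in WT. At all 10 bottoms both other sets lay nearer to 0, and they came closest on chromosome 3 from 590000, with -0.41 at Bud and -0.358 in omf201 against -0.46. The windows were chosen as extremes of 24 hpf WT, so that less extreme values elsewhere are partly set by the choice and were not tested.

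Amplitude, the SD over windows of the log2 smoothed ratio of a library, gives this comparison without choosing windows. In 24 hpf WT it was 0.227, 0.212, 0.208 and 0.214 (mean 0.215 ± 0.00838, SD, n = 4). In Bud WT it was 0.152, 0.157, 0.153 and 0.134 (0.149 ± 0.0101). In 24 hpf omf201 it was 0.169, 0.162, 0.16 and 0.168 (0.165 ± 0.00427). Every 24 hpf WT library lay above every library of the other sets. The differences of 0.0659 to Bud WT and 0.0504 to omf201 had a two-sided exact permutation p of 0.0286 each, the smallest that 4 against 4 samples allow, and 0.0286 after adjustment over the 2 comparisons. The mean profiles correlated at 0.832 with Bud WT and 0.723 with omf201 over windows, as a description. Of the 24 hpf WT summits, 55% had a Bud WT summit within 100 kb (57.5% of those of Bud WT), and 45.7% an omf201 summit (53% of those of omf201). For bottoms these shares were 60.1% and 61.9% for Bud WT, and 39.2% and 45.2% for omf201. These shares were not tested, and within 24 hpf WT a library held 90.2% to 92.4% of the summits of the mean profile that it is part of.

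Whole chromosomes also differed in timing, by much less than regions within them. The share of a library's counts on each chromosome was compared by two-sided exact permutation of the 8 libraries, and 16 of 25 chromosomes (64.0%) were called at an adjusted p of 0.0446. Chromosomes 5, 7, 11, 13, 19, 21, 22 and 23 had a higher share in S, and chromosomes 1, 4, 8, 12, 14, 17, 18 and 25 a lower one. Within every chromosome the SD of the log2 ratio over windows was at least 0.197, while the differences between S and G1 of whole chromosomes lay between -0.0726 and 0.0484. Each chromosome thus held both early and late windows, and the called early share ran from 30% on chromosome 4 to 47.9% on chromosome 22.

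The earliest chromosomes were 22 and 23. Relative to the mean of the G1 libraries, the log2 share of chromosome 22 was 0.0467, 0.048, 0.0457 and 0.0532 in S and -0.0129, 0.00215, 0.00431 and 0.00646 in G1. That of chromosome 23 was 0.0531, 0.046, 0.0456 and 0.0428 in S, against -0.00412 to 0.0052 in G1. In both, the S libraries lay close together and far from G1, with a difference of 0.0484 and 0.0469. Number-matched pairs differed by 0.0597, 0.0458, 0.0414 and 0.0467 on chromosome 22, and by 0.0479, 0.0502, 0.0426 and 0.0468 on chromosome 23. With all libraries, chromosomes 13 (0.0428), 7 (0.0345), 19 (0.0315), 5 (0.0272), 11 (0.0253) and 21 (0.018) followed. Without G1 replicate 1, the difference was 0.0441 on chromosome 22, 0.0447 on chromosome 13 and 0.0486 on chromosome 23. The order of these chromosomes thus rests on the libraries used. For chromosome 11 the median ratio of its windows gave -0.00227, the opposite sign.

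The latest was chromosome 4. Its log2 share was -0.0738, -0.0744, -0.0708 and -0.0713 in S and 0.000409, -0.00694, 0.00181 and 0.00471 in G1, a difference of -0.0726. Chromosomes 12 (-0.0482), 14 (-0.0432) and 1 (-0.0404) came next, then 17 (-0.0297), 18 (-0.0191), 8 (-0.0172) and 25 (-0.00969). On chromosome 25 the groups nearly met, with the lowest G1 library at -0.00685 and the highest S library at -0.00693. On the chromosomes not called the difference was between -0.0132 and 0.0113, and S and G1 libraries overlapped. Within number-matched pairs, all 4 differences had the same sign on 6 of these 9 chromosomes, for instance -0.0144, -0.0105, -0.0116 and -0.0163 on chromosome 9. On chromosomes 1 and 5, where replicate 1 was the lowest S library, the paired differences were -0.0399, -0.0411, -0.041 and -0.0398, and 0.0236, 0.027, 0.0273 and 0.0311.

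The exact test allows no chromosome to be called unless at least 15 reach its smallest p of 0.0286. With S replicate 2, 3 or 4 or G1 replicate 1 left out, 14, 14, 13 and 14 chromosomes reached it, and none was called (smallest adjusted p 0.051 to 0.0549). With replicate numbers as pairs, an exact sign-flip test of 4 pairs cannot go below 0.125 and called none, while limma with the replicate number as a block called 21 (10 higher and 11 lower in S) and limma without it 17. The 5 added by the block to those of the exact test were chromosomes 3, 9 and 15, lower in S, and 16 and 20, higher in S (adjusted p 2.25e-05 to 0.0146).

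**Figure D4:**
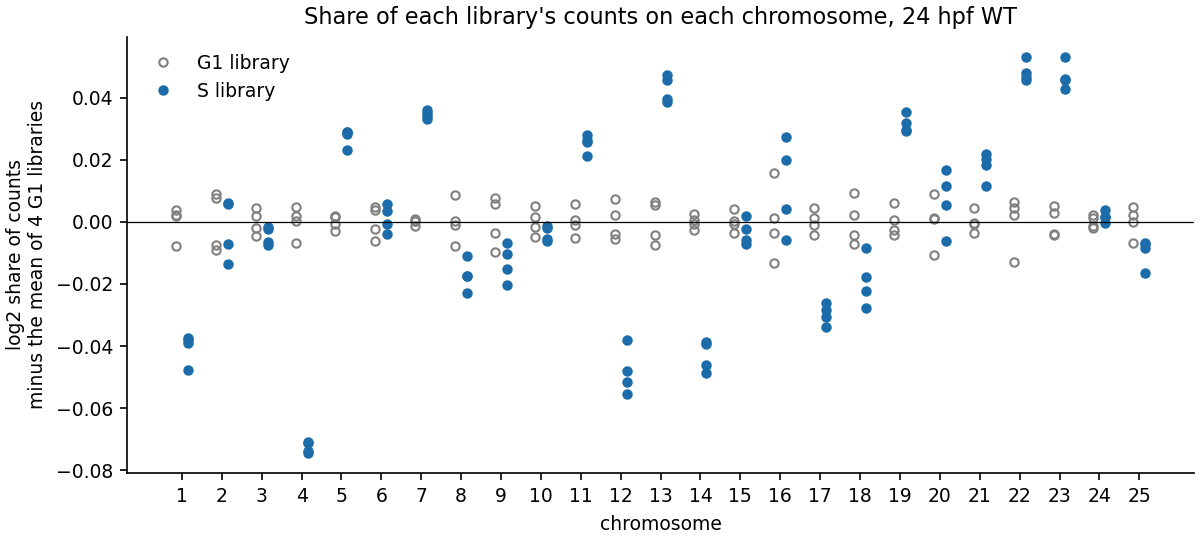
Log2 share of counts on each chromosome, minus the mean of the G1 libraries (y axis), for the 4 S libraries (filled) and the 4 G1 libraries (open) of 24 hpf WT, by chromosome (x axis). S lies lowest on chromosome 4 and highest on chromosomes 22 and 23, and S and G1 points overlap on the chromosomes that were not called.

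The long arm of chromosome 4 was late as a whole. In zebrafish this arm is known for heterochromatin, repeats and large families of immune and zinc finger genes. Over the windows that start at or after 28000000, its log2 share was -0.308, -0.306, -0.287 and -0.308 in S and -0.00177, -0.0137, 0.0159 and -0.000483 in G1. The groups were far apart, with a difference of -0.302. The two-sided exact permutation p was 0.0286, and 0.0286 after adjustment over the 2 regions tested. The paired sign-flip p was 0.125, the smallest 4 pairs allow. The arm was chosen with earlier results of these data known, so these p-values are no separate test. Of its 1790 profile windows, 1642 (91.7%) were called late and 56 early, while on the rest of the chromosome 754 of 2728 (27.6%) were late and 1299 early. The arm held 5 summits, the highest at a log2 ratio of 0.192, against 14 summits up to 0.35 on the rest.

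Along chromosome 4 the mean ratio of wide stretches was positive up to 20 Mb and negative beyond, with windows of both kinds on each side. In the first 5 Mb, 28.1% of windows were called late, and between 20 and 28 Mb 18.2% were called early. With the number-matched G1 library as reference, the mean log2 ratio was 0.0478 ± 0.0105 (SD, n = 4) in the first 5 Mb, rose to 0.142 ± 0.00652 between 15 and 20 Mb and was -0.0916 ± 0.00627 between 20 and 28 Mb. It was lowest between 35 and 50 Mb, at -0.367 ± 0.0118, and between 50 and 65 Mb, at -0.356 ± 0.0115, and in both of these stretches 100% of windows were called late. In the last stretch, from 65 to 79 Mb, it was higher again, at -0.25 ± 0.00309, and 5.81% of windows were called early. The arm was thus late over nearly all of its length.

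On average over the chromosomes, the ends were early only over a short distance. Single ends can depart from this average. The bottom of chromosome 3 from 590000, among the 10 lowest at -0.46, lay 0.59 Mb from an end. In the outer 2 Mb of all chromosomes, the log2 share was 0.0262, 0.0313, 0.0242 and 0.0207 in S and 0.00227, 0.00743, -0.000546 and -0.00915 in G1. The groups did not overlap, and the difference was 0.0256. The two-sided exact permutation p was 0.0286, and 0.0286 after adjustment, and the paired sign-flip p was 0.125. The ends too were chosen with earlier results of these data known, so these p-values are no separate test. The difference was 0.0979 for the outer 0.5 Mb and -0.00704 for the outer 5 Mb (exact permutation p 0.114), so its sign depends on the distance taken. These other distances did not enter the adjustment. In bins, the mean log2 smoothed ratio to the number-matched G1 library was 0.0844 ± 0.00208 (SD, n = 4) within 0.5 Mb of an end, 0.00813 ± 0.00584 from 0.5 to 1 Mb and -0.0449 ± 0.0017 from 5 to 10 Mb. Beyond 20 Mb from an end it was 0.0471 ± 0.00082. These bins leave out the long arm of chromosome 4.

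The middles of chromosomes were thus earlier than the parts around them. On 22 of the 24 chromosomes other than chromosome 4, the mean log2 ratio, read in the same way, at 15 Mb or more from both ends was higher than that between 2 and 15 Mb from an end in all 4 libraries. The difference was largest on chromosome 7, at 0.233, 0.222, 0.212 and 0.206 in the 4 libraries. Chromosome 10 ran the other way in all 4 libraries, at -0.0611, -0.0589, -0.0512 and -0.0641, and on chromosome 8 the libraries did not have the same sign. These differences were seen after the profile had been examined along the chromosomes and were not tested.

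**Figure D5:**
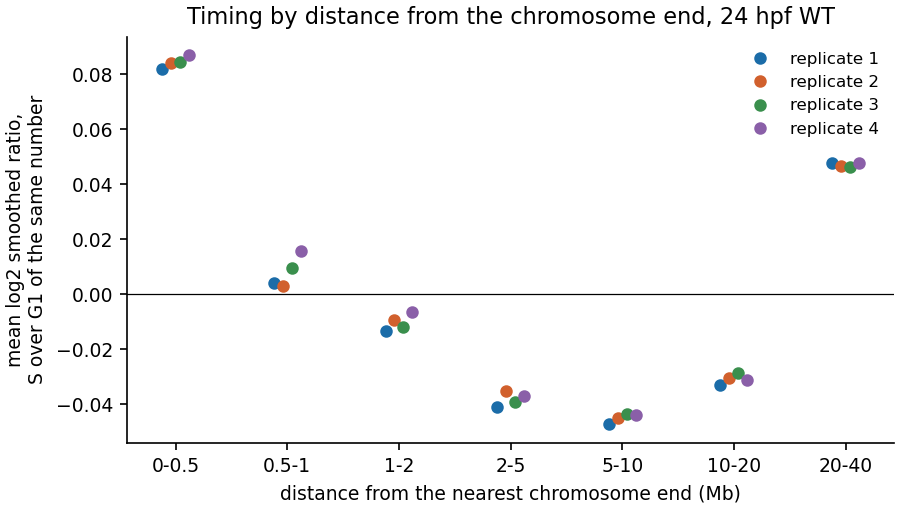
Mean log2 smoothed S/G1 ratio (y axis) of the 4 S libraries of 24 hpf WT, each over the number-matched G1 library, by distance from the nearest chromosome end in Mb (x axis), without the long arm of chromosome 4. The outermost bin is early at 0.0844, the bins from 1 to 20 Mb lie below 0, and the bin beyond 20 Mb is early at 0.0471.

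Windows wider than the usual 60 kb were later. Off the long arm of chromosome 4, windows of 60 kb had a mean log2 ratio, with the same reference, of -0.00101 ± 0.000745 (SD, n = 4). Windows of 40 kb or less had -0.00108 ± 0.00261. The mean was -0.132 ± 0.00558 for windows of 80 kb, -0.113 ± 0.00426 for those of 100 kb and -0.183 ± 0.00778 for wider ones. The ratio thus did not fall steadily with width. On the arm itself wide windows were common, so that over all windows those above 100 kb had a mean of -0.302. The Pearson correlation of width and log2 ratio was -0.213 over 120059 windows and -0.152 without the arm, as a description across windows of the same libraries. What sets the width of a window is not given in the sources used here.

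The stage of the G1 reference mattered in a few places. The deposited profiles divide by the median of 8 WT G1 libraries, 4 from Bud and 4 from 24 hpf, and their mean for 24 hpf S correlated at 0.9969 with the profile used here. In 167 windows (0.139%) they differed by over 0.1 log2. On chromosome 5 from 37470000 to 37820001, the G1 level was 1.57, 1.53, 1.31 and 1.4 at 24 hpf and 1.04, 1.07, 1.07 and 1.09 at Bud, and the groups did not overlap. The S level at 24 hpf was 1.52, 1.64, 1.52 and 1.57, and in replicate 1 it lay below the level of the G1 library. The log2 ratio of the smoothed profile, which also draws on neighbouring windows, was 0.184 with the stage-matched reference. In the deposited profile it was 0.331. On chromosome 14 from 37020000 to 37370001, the 24 hpf G1 libraries were at 1.43, 1.37, 1.16 and 1.25 and the Bud ones at 0.896 to 0.946. There the smoothed log2 ratio was -0.318 instead of -0.15. On chromosome 16 from 34520000 to 34840001 it was -0.295 instead of -0.156. In these 3 places the 24 hpf G1 nuclei had higher counts than those of the Bud stage. They were picked for this difference, which was not tested.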

How the data were processed

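Per the submitters' processing notes, the authors used fastp, BWA and Picard with the GRCz11 build, and per the labels the RepliTimer pipeline. They deposited raw read counts per window. The authors' deposited ratio values (count over the library mean, over the median of 8 WT G1 libraries), the deposited smoothed ratio and its log2 were recomputed from the counts to within 4.84e-07, 5.82e-07 and 7.05e-07. The smoother was a cubic spline with a penalty of 1e+16 bp cubed in 97 stretches. It served here with a reference of the 4 24 hpf WT G1 libraries, and 120059 windows had a profile.

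Samples were grouped by their titles. The members, regions and tests were chosen with earlier results of these data known. Windows were tested with edgeR 4.0.16 (R 4.3.3) on the counts, with library totals as the scale and no filter on low counts. For 17657 windows drawn with the real means, the test recovered 90% to 100% of windows changed by 0.2 or 0.4 log2 (50 for each size and sign). It called 9 unchanged windows. The drawn windows were independent and few of them changed, unlike those of the data, so these rates do not carry over to the calls above. DESeq2 1.42.0 and limma 3.58.1 served as alternatives, and Python 3.11.15 with scipy 1.17.1 for profiles and exact tests of the absolute difference. The deposited z-scores were not used. The windows named were the 10 highest summits, the 10 lowest bottoms, the 3 longest early and the 3 longest late runs, and every called chromosome. Other regions were picked by their values. Counting errors cover counting only, since reads carried no molecular tags.

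S and G1 samples share replicate numbers. Deviations from the group mean correlated at 0.344 to 0.497 between S and G1 of the same number and at -0.265 to -0.01 between different numbers, over 17649 windows that do not overlap. The numbers thus pair the samples, though the labels do not say what a number marks. The main tests leave the pairs out, and they enter through the fits with a replicate block and the number-matched references. Genes, base composition and sequences at these positions were not analysed here.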

Additional observations from a re-analysis of the deposited data

Results flagged for a closer look

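Among 56 sets of 4 S libraries, 7 held a library apart from the other 3, as measured by its gap to the nearest library over the whole range of the 4. Chance alone gives about 5% of sets. Replicate 1 was apart in 4 of them. In the late domain of chromosome 20 from 10250000 it was the lowest, at -0.434 against -0.311 to -0.293 (gap over range 0.871). In the summit window of chromosome 24 from 17170000 it was the highest, at 0.464 against 0.362 to 0.379 (0.84). On chromosome 1 its log2 share of counts was the lowest, at -0.0477 against -0.0389 to -0.0373 (0.838), and on chromosome 5 too, at 0.023 against 0.0282 to 0.0289 (0.88).

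Replicate 2 was the lowest on chromosome 25, at -0.0163 against -0.00831 to -0.00693 (0.853). The G1 library of replicate 2 was also the lowest of its group there, at -0.00685. Replicate 3 was the highest in the bottom of chromosome 3 from 590000, at -0.409 against -0.481 to -0.474 (0.901). It was also the highest on the long arm of chromosome 4, at -0.287 against -0.308 to -0.306 (0.873). On that arm the G1 library of replicate 3 was the highest of its group too, at 0.0159.

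The amplitude of the S against G1 contrast differed between sets of libraries, by 0.0659 between 24 hpf WT and Bud WT and by 0.0504 between 24 hpf WT and 24 hpf omf201.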

How the results depend on the processing

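The share of windows called ranged from 75.1% with DESeq2 to 82.3% with the replicate number as a block (78.6% without), was 76.2% to 77.2% without each replicate in turn, and was 91.1% for limma on smoothed ratios with each library's own G1. No window was called in the opposite direction by edgeR or DESeq2 under these settings, and 285 were by limma. Early domains numbered 1078 (median 360 kb) and late ones 1088 (380 kb) with at least 6 windows, and 682 (735 kb) and 713 (750 kb) as stretches above or below the mean, since these definitions join or drop short runs. Without 1 replicate, early runs numbered 1706 to 1780. Summits numbered 539 and 1061 with a penalty 10 times larger and smaller, and 948 and 619 with a prominence of 0.05 and 0.2. Called chromosomes numbered 0 under the paired sign-flip replicate block, 0 to 16 without each replicate in turn, and 19 under both other scales. Chromosome 11 changed sign, to -0.00227, with the median window ratio. Under the sign-flip block, the outer 2 Mb (0.0256) and the long arm of chromosome 4 (-0.302) had an exact sign-flip p of 0.125. The outer 5 Mb reversed the end effect, to -0.00704; its cause was not tested. The block changed no other call of a named region. Amplitude differences were 0.061 to 0.0684 and 0.0464 to 0.0529 without each replicate in turn. The planned comparisons with gene lists, base composition and gene density were not run, for want of an annotation of GRCz11.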
